A study of Mus musculus with 16 samples.

Results

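The epidermal differentiation complex is a cluster of genes on mouse chromosome 3 that encode most of the structural proteins of the cornified layer of skin. Its members were taken here by name: late cornified envelope genes (Lce), small proline-rich protein genes (Sprr), S100a genes of the EF-hand calcium-binding S100 family, and 12 named genes (Flg, Flg2, Hrnr, Rptn, Tchh, Tchhl1, Lor, Ivl, Crnn, Crct1, Pglyrp3 and Pglyrp4). The rule found 64 of the 32989 genes in the count table. Of these, 63 lay on chromosome 3 between 90511034 and 93564643 (GRCm38), a stretch of 3.05 Mb, and the remaining one was the processed pseudogene S100a11-ps on chromosome 12. By family, the table held 15 S100a genes, 15 genes of the Lce1 group with Lce6a, 13 Sprr2 genes, 6 Lce3 genes, 7 fused S100 genes, which join an S100 domain to a long repeat region, 3 other Sprr genes and 5 single genes (Lor, Ivl, Crct1, Pglyrp3 and Pglyrp4). The Sprr2 genes filled 92215799 to 92433925, the other Sprr genes 92436809 to 92485895, the Lce1 group with Lce6a 92620081 to 93019060, with the Lce3 genes inside it at 92925287 to 92993426, and the fused S100 genes 93144787 to 93471980, while S100a genes stood at both ends.

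As keratinocytes leave the basal layer they stop dividing, flatten and replace their plasma membrane by the cornified envelope, a sheet of proteins joined by transglutaminases. Involucrin (Ivl) is laid down early as a scaffold, and loricrin (Lor), SPRR and LCE proteins are joined to it later, while filaggrin and its relatives bind keratin filaments. S100 proteins bind calcium and act inside and outside the cell, and S100A8 with S100A9 form calprotectin, an antimicrobial dimer that keratinocytes make in wounds and inflamed skin. In the hair follicle, stem cells of the bulge are kept undifferentiated, and genes of this complex serve as markers of their progeny on the way to differentiation.

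RNA was measured in 16 libraries from organoid cultures of hair follicle stem cells (HFSCs), set up from 4 mice of the strain C57BL/6J and grown for 2 weeks under 3D-3C conditions. Sorting of integrin α6+ cells by the bulge marker CD34 gave α6+CD34− cells, called progenitors, and α6+CD34+ cells, called HFSCs. Cultures either stayed untreated or received the acetylated polyamine N1-acetylspermidine (N1-AcSpd) for 72 h. No group carried an added allele or transgene, and the age of the mice and the concentration of N1-AcSpd are not in the labels. The 4 libraries of a replicate number, 1 per group, share a code in the labels and were taken as coming from 1 mouse, so mice 1 to 4 denote the same animal throughout. Libraries were read at the 3′ end with unique molecular identifiers (UMIs), so a count is a number of tagged molecules and does not scale with transcript length. Levels are given in CPM, UMI counts scaled to a common library total.

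Library totals ran from 15480075 to 29074855 UMIs, and 22142 to 24247 genes had a UMI. The bulge markers were higher in CD34+ libraries. The sum of 7 of them was 96.4 to 107 CPM in untreated CD34− and 470 to 639 CPM in untreated CD34+ libraries. Krt15, a keratin of the bulge, made up most of the latter, at 38.6 ± 3.37 and 393 ± 56.1 CPM (mean ± SD, n = 4). Cd34, also in the sum, was at 3.19 ± 0.0943 and 49.98 ± 5.90 CPM. The cells were sorted by CD34, so this difference was set by the design. Hair shaft and inner root sheath keratins were close to absent, their sum being at most 1.19 CPM in any library. The library of N1-AcSpd CD34− cells from mouse 1 stood apart within the complex, with the highest level of its group for most envelope genes, and among untreated CD34− libraries mouse 3 did so for the Lce genes. For the effect of N1-AcSpd in progenitors, values without the former are given beside those that rest on it. In sorted bulk RNA, fewer cells that express a gene and less RNA per cell cannot be told apart.

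Of the 64 members, 55 had a mean of at least 5 UMIs per library and were tested, together with 19049 genes in all. A mean of at least 50 UMIs was reached by 39 of them. The 9 members below 5 UMIs were S100a11-ps, S100a2, S100a5, Sprr2c-ps, Sprr3, Lce6a, Lce1m, Flg2 and Tchhl1, so the mouse counterparts of filaggrin 2 and SPRR3 were not measurable at this depth. The gene named Sprr4 is in the annotation but had no row in the table and was not analysed here.

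The 200 bases before the start site are printed for 9 members picked as examples of the families that follow. They are taken from RefSeq on GRCm38.p6 and run 5′ to 3′ on the strand of the gene, and capitals mark the TATA box letters TATAAA and the AP-1 letters TGANTCA, the recognition sequence of Jun and Fos dimers. The first 6 belong to genes of the Sprr, involucrin and loricrin type, the next 2 to an Lce3 and an Lce1 gene, and the last to S100a6, whose level was near equal in both cell types.
Sprr1a (chr3:92485882-92486081, minus strand): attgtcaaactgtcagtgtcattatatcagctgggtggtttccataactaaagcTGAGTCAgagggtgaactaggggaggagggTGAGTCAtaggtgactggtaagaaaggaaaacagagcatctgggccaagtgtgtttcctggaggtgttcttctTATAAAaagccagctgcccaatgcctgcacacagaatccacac
Sprr1b (chr3:92438780-92438979, minus strand): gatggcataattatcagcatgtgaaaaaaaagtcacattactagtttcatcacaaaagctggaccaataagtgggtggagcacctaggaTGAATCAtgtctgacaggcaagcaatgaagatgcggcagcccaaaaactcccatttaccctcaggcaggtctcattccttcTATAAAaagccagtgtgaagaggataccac
Sprr2h (chr3:92385485-92385684, plus strand): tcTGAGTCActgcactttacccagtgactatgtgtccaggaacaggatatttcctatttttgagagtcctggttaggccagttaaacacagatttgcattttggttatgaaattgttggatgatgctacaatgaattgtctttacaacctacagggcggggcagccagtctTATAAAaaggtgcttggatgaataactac
Sprr2d (chr3:92338940-92339139, plus strand): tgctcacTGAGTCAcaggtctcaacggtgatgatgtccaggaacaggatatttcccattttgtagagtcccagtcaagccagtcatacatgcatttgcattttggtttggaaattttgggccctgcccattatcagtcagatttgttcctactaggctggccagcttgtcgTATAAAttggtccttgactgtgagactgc
Ivl (chr3:92573736-92573935, minus strand): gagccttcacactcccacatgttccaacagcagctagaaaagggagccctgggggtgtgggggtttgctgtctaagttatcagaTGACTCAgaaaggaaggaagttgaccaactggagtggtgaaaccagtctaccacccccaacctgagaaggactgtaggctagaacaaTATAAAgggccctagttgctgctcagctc
Lor (chr3:92083143-92083342, minus strand): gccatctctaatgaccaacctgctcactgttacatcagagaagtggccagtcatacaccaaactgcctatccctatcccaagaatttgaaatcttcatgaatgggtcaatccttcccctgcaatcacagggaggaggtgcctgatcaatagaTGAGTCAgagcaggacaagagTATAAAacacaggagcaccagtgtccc
Lce3c (chr3:92944286-92944485, plus strand): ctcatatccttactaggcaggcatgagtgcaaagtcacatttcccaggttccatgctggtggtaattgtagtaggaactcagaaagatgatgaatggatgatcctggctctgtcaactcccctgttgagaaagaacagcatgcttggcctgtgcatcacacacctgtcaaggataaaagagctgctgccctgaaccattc
Lce1e (chr3:92709075-92709274, minus strand): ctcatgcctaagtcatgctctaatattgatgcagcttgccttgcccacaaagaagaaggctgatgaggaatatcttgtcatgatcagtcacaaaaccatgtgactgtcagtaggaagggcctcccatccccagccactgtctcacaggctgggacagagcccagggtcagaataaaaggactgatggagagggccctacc
S100a6 (chr3:90612694-90612893, plus strand): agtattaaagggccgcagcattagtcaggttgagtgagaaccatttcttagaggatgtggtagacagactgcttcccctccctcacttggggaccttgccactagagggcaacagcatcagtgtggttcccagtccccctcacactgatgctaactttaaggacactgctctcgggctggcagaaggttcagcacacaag
Both capitalised motifs occur in each of the first 6 sequences, and neither occurs in the last 3. Sprr1a carries 2 AP-1 matches. In each of those 6, the TATA letters stand nearer to the start site than any AP-1 match.

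A RefSeq start was found for 53 of the 64 members, and the window searched ran from 250 bases before to 50 after it, on both strands. AP-1 letters were present in 17 of 53 members, or 32.1%, against 7.93% of 27025 promoters. They stood in 7 of 10 Sprr2 genes, 2 of 3 other Sprr genes, 5 of 7 fused S100 genes, in Ivl and Lor, and in 1 of 11 S100a genes, but in 0 of 14 genes of the Lce1 group and 0 of 6 Lce3 genes. TATAAA was present in 43.4% of members and 14.2% of all promoters. It stood in 7 of 10 Sprr2, 3 of 3 other Sprr, 4 of 7 fused S100 genes and in Ivl and Lor. It also stood in 3 of 14 genes of the Lce1 group, 1 of 6 Lce3 and 3 of 11 S100a genes, unlike the printed examples of these families. Between 20 and 40 bases before the start, on the strand of the gene only, TATAAA was found in 34.0% of members and 2.22% of all promoters. Members of a family are related in sequence, so their matches are not independent of each other. The letters CACCC, read by KLF factors, were as frequent in members (56.6%) as in all promoters (56.7%), and AACCGG, read by GRHL factors, was found in 0 of 53 members against 6.78% of all promoters. Sprr2b, which is not printed, held both AP-1 and TATA letters, and Sprr2a1, Sprr2a2 and Sprr2a3 held neither. These matches describe letters in a fixed window and no binding was measured. Any relation of the letters to the level of a gene was not tested.

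The comparison of HFSCs with progenitors in untreated organoids asked which members mark the difference between the cell types without supplementation. Nearly every gene of the cornified envelope was lower in CD34+ cells, mostly by 2 to 3 on the log2 scale, whereas the S100a genes split by member. Of the 55 members tested, 47 passed edgeR's quasi-likelihood test at a Benjamini-Hochberg adjusted p under 0.05, with 44 lower and 3 higher in CD34+ cells, while 32.1% of all genes tested passed, 16.1% in each direction. The median log2 fold change was -2.38 over the 55 members and 0.02 over all genes. All 13 Lce1, 6 Lce3, 2 Sprr1 and 5 fused S100 genes tested were lower, as were 8 of 12 Sprr2 genes, 4 of 5 single genes and 6 of 12 S100a genes. In 44 members the 4 libraries of one cell type did not overlap the 4 of the other, with 41 of them lower in CD34+ cells, and 32.2% of all genes showed such a gap (16.2% lower).

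**Figure D1:**
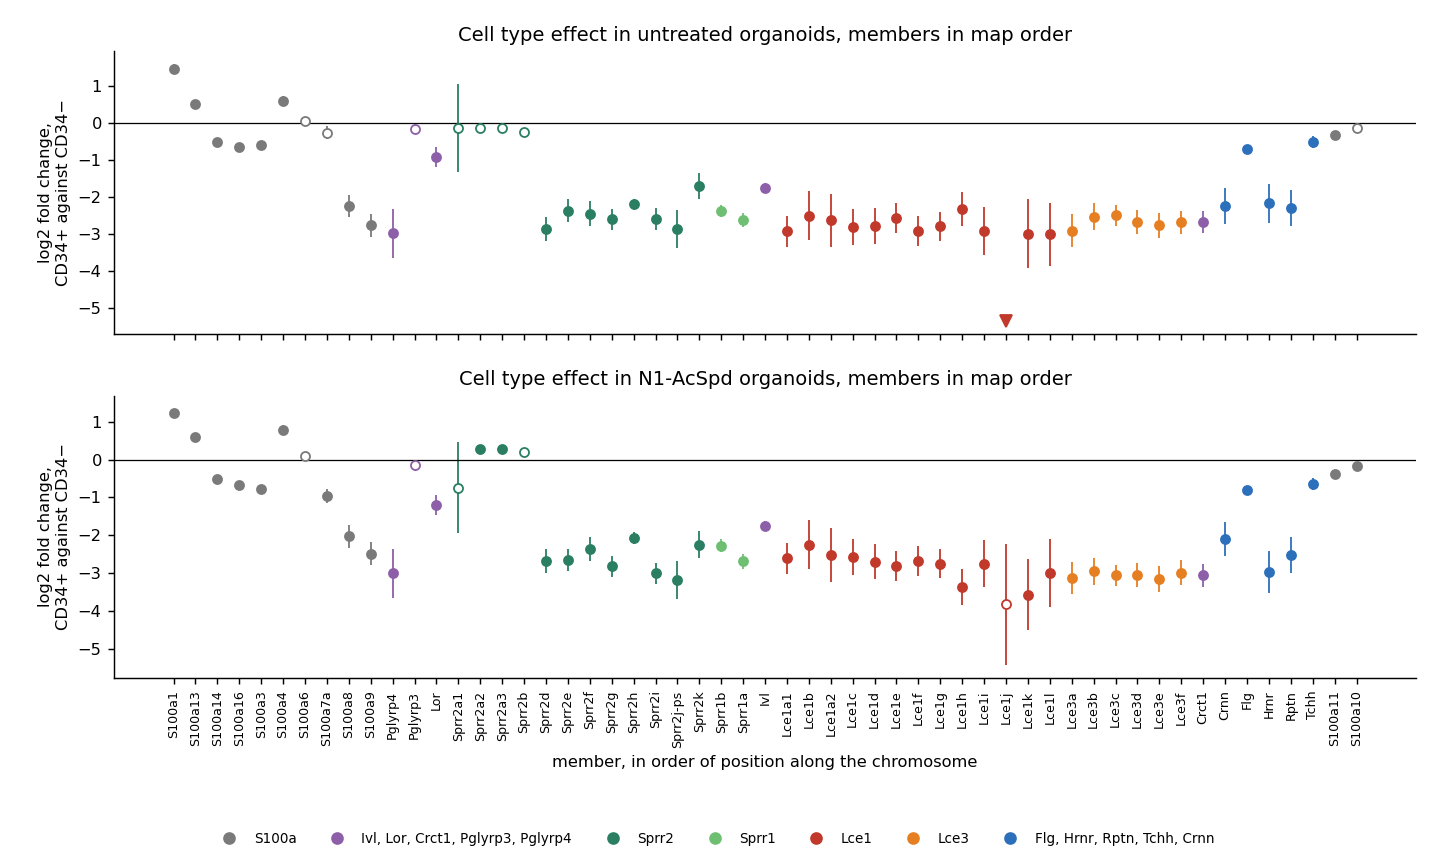
Log2 fold change of CD34+ against CD34− cells (y axis, with the standard error as a bar) for 55 members in chromosome order (x axis), in untreated (top) and N1-AcSpd organoids (bottom); filled points passed the test and the triangle marks the lower bound for Lce1j. Most Sprr, Lce and fused S100 genes lie between -2 and -3, and the S100a genes, the Sprr2a copies, Sprr2b and Pglyrp3 lie near or above them.

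The SPRR proteins are small proline-rich substrates of transglutaminase that bridge other envelope proteins. Sprr1a stood at 374, 385, 538 and 534 CPM in the untreated CD34− libraries of mice 1 to 4 and at 65.3, 79.7, 82.7 and 72.5 CPM in the CD34+ libraries (log2 fold change -2.61, SE 0.20, edgeR adjusted p = 7.69e-07). Every progenitor library was above every HFSC library, and mice 3 and 4 were highest among progenitors. Sprr1b was at 324 ± 65.5 and 62.4 ± 6.71 CPM (mean ± SD, n = 4), which gave a difference of -2.38 on the log2 scale (SE 0.16, adjusted p = 4.86e-07). Sprr2h, the most abundant Sprr2 gene after the Sprr2a copies, stood at 226, 221, 279 and 302 CPM in progenitors and 46.8, 59.3, 65.7 and 53.3 CPM in HFSCs (log2 fold change -2.19, SE 0.15). The groups did not overlap for either gene, and mouse 4 was the highest progenitor library for both. Sprr2d was at 57.2 ± 17.98 and 7.85 ± 1.60 CPM and gave the steepest fall among the Sprr2 genes with 50 or more UMIs, a difference of -2.87 on the log2 scale (SE 0.32, adjusted p = 1.55e-05). Sprr2e (5.85 ± 1.22 and 1.14 ± 0.336 CPM), Sprr2g (15.3 ± 4.20 and 2.54 ± 0.683 CPM) and Sprr2i (3.77 ± 1.56 and 0.624 ± 0.0258 CPM) fell to a like degree, with log2 fold changes from -2.59 for Sprr2g to -2.36 for Sprr2e. The 3 Sprr2 genes with 5 to 50 UMIs, Sprr2f, Sprr2k and Sprr2j-ps, were lower as well, from -2.85 to -1.70. The annotation types Sprr2j-ps as protein-coding despite its name, and Sprr2g as a polymorphic pseudogene. Summed over the family without the Sprr2a copies and Sprr2b, the level was 4.95 times higher in untreated progenitors than in HFSCs. With these included, the Sprr2 sum was only 1.11 times higher in progenitors (17006 and 15260 CPM). The sum of all members, most of it from the Sprr2a copies, was 1.16 times higher (21014 and 18074 CPM).

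Sprr2a1, Sprr2a2 and Sprr2a3 did not follow the rest. They were the most abundant members by far, Sprr2a2 standing at 6297, 5760, 5937 and 6364 CPM in untreated CD34− and 5227, 5885, 5678 and 5424 CPM in untreated CD34+ libraries (log2 fold change -0.13, SE 0.08, adjusted p = 0.266). The groups overlapped, with the HFSC library of mouse 2 above a progenitor library. In the last 500 bases of their transcripts, every 31-base word of Sprr2a1 and Sprr2a2 and 88.3% of those of Sprr2a3 recur in other genes, so their UMIs could not be assigned to 1 copy. The ratio of Sprr2a2 to Sprr2a3 counts stayed between 1.38 and 1.44 in all 16 libraries. Sprr2a1, whose model overlaps that of Sprr2a2, equalled Sprr2a2 to within a few per cent in 14 libraries but fell to 16.4 and 14.3 CPM in N1-AcSpd CD34+ cells of mice 3 and 4, where Sprr2a2 stayed at 7001 and 6241 CPM. No statement on Sprr2a1 alone is therefore made. Sprr2b, at 199 ± 16.6 and 169 ± 7.35 CPM, shared 25.3% of its words and followed the Sprr2a copies, with a ratio to Sprr2a2 of 0.0293 to 0.0346.

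**Figure D2:**
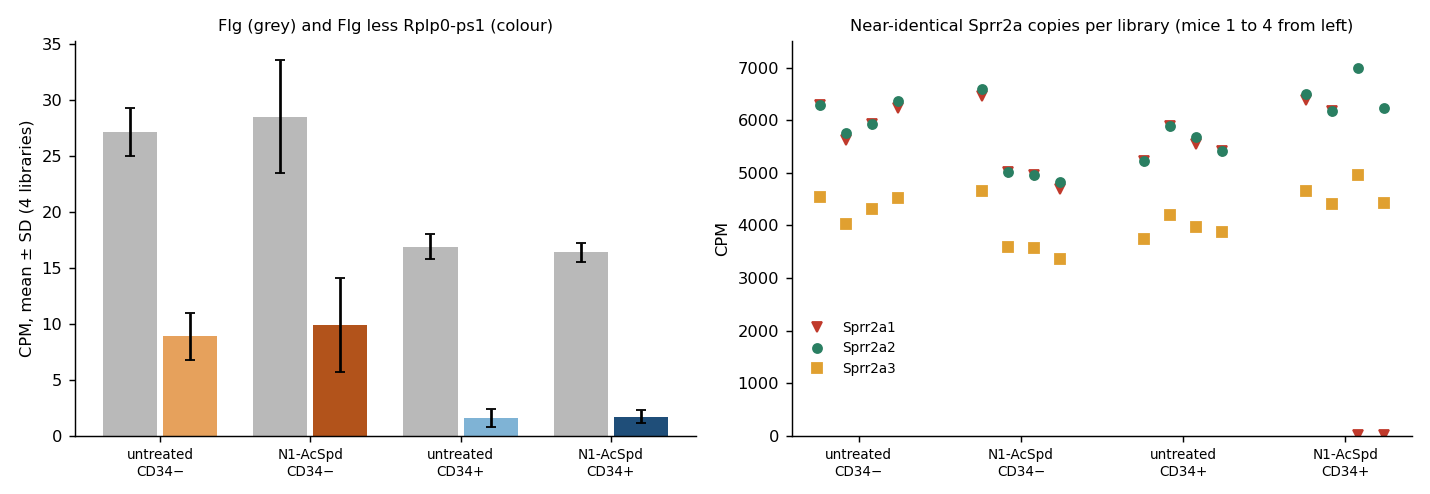
Left, level of Flg in CPM (mean ± SD of 4 libraries per group) as deposited (grey) and after the counts of the pseudogene Rplp0-ps1 inside it were taken off (colour); right, level in CPM of the 3 near-identical Sprr2a genes in each library. Flg without the pseudogene was 8.88 CPM in untreated CD34− and 1.59 CPM in untreated CD34+ cells, and Sprr2a1 lies near 0 in 2 libraries in which Sprr2a2 is at 7001 and 6241 CPM.

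Among the single genes, Ivl stood at 26.5, 30.3, 37.3 and 31.5 CPM in the untreated CD34− libraries of mice 1 to 4 and at 8.59, 10.3, 9.43 and 8.99 CPM in the CD34+ libraries (log2 fold change -1.75, SE 0.14, adjusted p = 1.09e-06). The highest HFSC library was below the lowest progenitor library, and the spread within each cell type was narrow. Crct1, which encodes a small cysteine-rich protein of the complex, was at 44.1, 39.9, 70.3 and 41.2 CPM and 6.54, 9.11, 7.70 and 7.66 CPM (log2 fold change -2.65, SE 0.30, adjusted p = 1.54e-05). Its progenitor library of mouse 3 was the highest, as it was for the neighbouring Lce3 genes. Lor, the dominant protein of the mature envelope in skin, was low in all groups, at 2.11, 1.79, 3.03 and 1.99 and 0.967, 1.48, 1.30 and 0.976 CPM, and fell less (log2 fold change -0.92, SE 0.27, adjusted p = 0.0186, a call lost under 5 of 30 alternative settings). Pglyrp4, which encodes a peptidoglycan-binding antibacterial protein, was at 1.00 ± 0.272 and 0.124 ± 0.115 CPM (log2 fold change -2.97, adjusted p = 0.00329). Its relative Pglyrp3 gave 2.62 ± 0.409 and 2.38 ± 0.516 CPM and did not pass the test (log2 fold change -0.14, adjusted p = 0.537), but the pseudogene Mif-ps3 inside it held 91.9% of its UMIs, and the remainder was too low to test.

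The LCE proteins are cysteine-rich and join the envelope late. Within the Lce3 group, whose genes are best known for their induction after barrier damage, Lce3c was the most abundant, at 46.5, 53.0, 79.6 and 52.4 CPM in untreated progenitors and 8.48, 12.6, 11.3 and 8.89 CPM in untreated HFSCs (log2 fold change -2.49, SE 0.28, adjusted p = 1.42e-05). The groups were far apart, and mouse 3 was the highest progenitor library while the other 3 were close together. Lce3f (38.6 ± 13.1 and 6.04 ± 1.23 CPM), Lce3d (33.2 ± 11.8 and 5.18 ± 1.35 CPM), Lce3e (19.4 ± 6.34 and 2.86 ± 0.876 CPM), Lce3a (7.73 ± 3.02 and 1.03 ± 0.566 CPM) and Lce3b (6.90 ± 2.60 and 1.19 ± 0.337 CPM) gave log2 fold changes from -2.90 to -2.53. The Lce3 sum was 6.15 times higher in progenitors. The Lce3 genes shared 30.2 to 60.3% of the words at their 3′ ends with other genes, and the part of shared words in their values was not tested.

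In the Lce1 group, Lce1g stood at 6.58, 8.56, 16.7 and 5.78 CPM in progenitors and 1.31, 1.48, 1.57 and 1.079 CPM in HFSCs (log2 fold change -2.79, SE 0.40, adjusted p = 0.00012). The progenitor library of mouse 3 was again the highest and the groups did not overlap. Lce1e (9.33 ± 4.45 and 1.58 ± 0.146 CPM), Lce1f (10.5 ± 4.38 and 1.38 ± 0.414 CPM), Lce1a1 (4.41 ± 2.41 and 0.580 ± 0.158 CPM) and Lce1i (3.35 ± 1.73 and 0.442 ± 0.300 CPM) had log2 fold changes from -2.92 to -2.56. The other 8 Lce1 genes tested had means from 5 to 50 UMIs and were lower too. One of them, Lce1j, had 0 UMIs in all 4 untreated CD34+ libraries and 1.12, 2.17, 3.38 and 0 CPM in the progenitors, which makes it at least 40.3-fold lower when HFSCs are set at a floor of 3 UMIs over the group. In mouse 4, Lce1j had 0 UMIs in the untreated and the treated progenitor library, where the neighbouring Lce1i had 44 and 66. Whether UMIs of Lce1j went to similar genes was not tested, and the bound takes their assignment as given. The Lce1j call (adjusted p = 0.0284) was lost under 10 of 30 alternative settings, among them the fit with mouse as a block (adjusted p = 0.0520). Over the other 12 Lce1 genes the log2 fold changes ran from -3.00 (Lce1l) to -2.31 (Lce1h). The Lce1 sum, with Lce6a, was 52.5 ± 26.8 CPM in untreated progenitors and 7.49 ± 2.04 CPM in HFSCs, 7.002 times lower. Words shared with other genes made up 17 to 58.3% of the 3′ ends in this group.

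**Figure D3:**
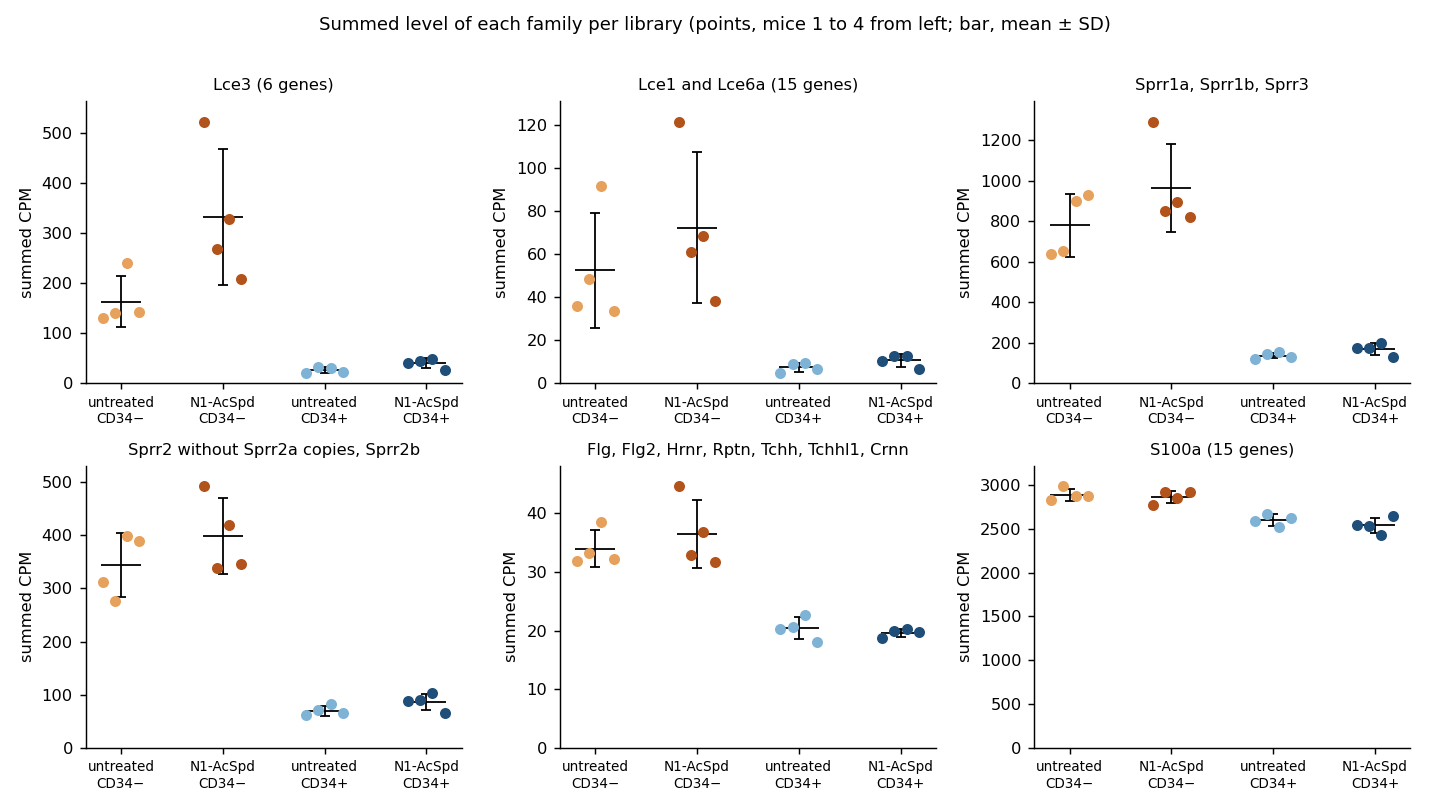
Summed level in CPM (y axis) of 6 groups of members in each of the 16 libraries (points, mice 1 to 4 from left to right; bars, mean ± SD of 4). The Sprr2 panel leaves out the Sprr2a copies and Sprr2b. Every progenitor library lies above every HFSC library in all 6 panels, and mouse 1 is the highest N1-AcSpd CD34− library in all panels but that of the S100a genes.

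Of the fused S100 genes, filaggrin (Flg), which aggregates keratin filaments and is later broken down to moisturising amino acids, stood at 27.1 ± 2.15 CPM in progenitors and 16.9 ± 1.14 CPM in HFSCs, which gave a difference of -0.68 on the log2 scale (SE 0.10, adjusted p = 0.000198). However, the ribosomal protein pseudogene Rplp0-ps1 lies inside Flg on the same strand and held 73.9% of its UMIs. With these taken off, Flg was at 8.88 ± 2.08 and 1.59 ± 0.784 CPM, and the log2 fold change became -2.48 (adjusted p = 0.000225). Rptn, encoding repetin, fell from 0.387, 0.894, 1.34 and 1.17 CPM to 0.0569, 0.219, 0.271 and 0.206 CPM (log2 fold change -2.29, SE 0.49, adjusted p = 0.00255), and Hrnr (hornerin) and Crnn (cornulin) had log2 fold changes of -2.16 and -2.23. For Rptn the lowest progenitor library, that of mouse 1, was still above all HFSC libraries. Tchh, encoding trichohyalin of the inner root sheath and medulla, stood at 3.79, 4.98, 4.68 and 3.61 and 2.50, 3.13, 4.07 and 2.21 CPM. Its groups overlapped and its log2 fold change was small (-0.52, SE 0.16, adjusted p = 0.0232); it lost the call under 9 of 30 alternative settings. Hrnr, Rptn and Tchh lie opposite the noncoding gene Gm37245, which overlaps them.

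The S100a genes behaved as individuals. S100a8 stood at 56.8, 43.8, 85.6 and 55.5 CPM in untreated CD34− and 14.7, 10.2, 16.7 and 9.92 CPM in untreated CD34+ libraries (log2 fold change -2.23, SE 0.30, adjusted p = 7.52e-05). Its partner S100a9 stood at 21.9, 16.4, 33.1 and 21.98 and 3.70, 2.74, 4.99 and 2.36 CPM (log2 fold change -2.76, SE 0.31, adjusted p = 1.73e-05). For both, mouse 3 was the highest library in each cell type and the groups did not overlap. Both genes are also abundant in neutrophils. The sum of 9 neutrophil and macrophage markers was 191 to 225 CPM in progenitors and 102 to 121 CPM in HFSCs. Almost all of it was the chemokine receptor gene Cxcr2 (202 ± 18.3 and 107 ± 9.41 CPM), and the granule genes Lyz2, Camp, Mpo and Ltf reached at most 0.213 CPM in any library. Of 5 markers of this list tested, 4 had a negative change and 2, Cxcr2 and Itgam, passed as lower in HFSCs (16.1% of all genes). Their part in the levels of S100a8 and S100a9 was not tested.

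S100a16, S100a14 and S100a11, broadly expressed in epithelia, were lower in HFSCs by small amounts. S100a16 was at 316 ± 21.6 and 202 ± 7.74 CPM (log2 fold change -0.65, SE 0.06), S100a14 at 235 ± 16.7 and 165 ± 13.8 CPM (-0.51, SE 0.07) and S100a11 at 262 ± 10.8 and 211 ± 6.29 CPM (-0.31, SE 0.04), all with adjusted p of at most 0.000114. S100a3, known from the hair cuticle, was at 6.72 ± 0.880 and 4.48 ± 0.427 CPM with a log2 fold change of -0.58 (adjusted p = 0.0007). Its model overlaps the gene model Gm42674, as that of S100a4 does. S100a6 (calcyclin), at 1303 ± 37.7 and 1354 ± 49.4 CPM, and S100a10, the light chain partner of annexin A2, at 654 ± 38.5 and 602 ± 20.9 CPM, were the most abundant S100a genes and did not pass the test, nor did S100a7a (2.37 ± 0.371 and 1.98 ± 0.371 CPM).

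The 3 members higher in HFSCs were all S100a genes. S100a1, a regulator of calcium handling best known from muscle, stood at 2.58, 3.64, 3.25 and 2.98 CPM in untreated CD34− and 9.85, 7.74, 7.27 and 9.51 CPM in untreated CD34+ libraries (log2 fold change 1.47, SE 0.12, adjusted p = 1.54e-06). The lowest HFSC library was at 7.27 CPM and the highest progenitor library at 3.64 CPM. S100a13, which takes part in the release of FGF1 from cells, was at 15.4, 15.6, 14.9 and 16.1 and 23.0, 23.3, 21.4 and 21.4 CPM (0.52, SE 0.05, adjusted p = 4.76e-06), and S100a4, associated with cell motility, at 6.37, 8.94, 9.44 and 6.27 and 11.5, 11.8, 10.6 and 13.1 CPM (0.60, SE 0.13, adjusted p = 0.00256). Neither overlapped between the cell types. The position of these genes at the S100 end of the complex is the same as that of S100a8 and S100a9, which were lower.

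Genes outside the complex that build the envelope moved with it. All 15 genes of a list of crosslinking and scaffold genes were lower in untreated HFSCs, with a median log2 fold change of -1.82. Of all genes tested, 16.1% passed as lower and 16.1% as higher, the share to set beside each count here. Tgm1, the main transglutaminase of keratinocytes, was at 11.8 ± 1.95 and 1.91 ± 0.222 CPM (log2 fold change -2.63, adjusted p = 9.44e-07), and Asprv1, a protease that processes profilaggrin, was at 41.3 ± 10.8 and 6.65 ± 1.09 CPM (-2.63, adjusted p = 1.45e-05). Of 22 tested transcription factors reported to act on the complex or on epidermal differentiation, 13 were lower and 2 higher. The steepest falls were those of Grhl3 (6.47 ± 0.8288 and 1.19 ± 0.170 CPM, -2.43) and Zfp750 (10.6 ± 2.40 and 2.33 ± 0.703 CPM, -2.19), both drivers of terminal differentiation. Of 5 tested partners or receptors of S100 proteins, 3 were lower and 1 higher, with Anxa1 at -0.86 and Anxa6 at 0.89. Among 22 other genes tested within the interval, 11 were lower and 1 higher. The steepest falls there were those of Kprp, which encodes keratinocyte proline-rich protein (-3.17, adjusted p = 0.00118), and 2310046K23Rik (-2.67, adjusted p = 2.18e-06).

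Markers of suprabasal keratinocytes changed in parallel with the Sprr, Lce and fused S100 genes: 7 of 7 tested were lower in untreated HFSCs (16.1% of all genes), among them Dsc1 (-2.83) and Dsg1a (-2.72), desmosomal cadherins of the upper layers. The sum of 8 such markers was 998.5 to 1365 CPM in untreated progenitors and 278 to 302 CPM in untreated HFSCs, 1204 to 1518 CPM and 288 to 378 CPM in N1-AcSpd progenitors and HFSCs. Their part in the differences of the complex was not tested. Both sort fractions carried integrin α6.

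With N1-AcSpd the same comparison of cell types was repeated in organoids of the same mice. The 6 Lce3 genes, 12 of 13 Lce1 genes, both Sprr1 genes, the 5 fused S100 genes and 8 of 12 Sprr2 genes were lower in HFSCs here too, and the remaining Lce1 gene, Lce1j, did not pass (adjusted p = 0.0945). Of the 55 members, 50 passed the test, 45 lower and 5 higher, against 33.3% of all genes (16.8% lower and 16.5% higher), with a median log2 fold change of -2.51 against -0.01 over all genes. The 4 libraries of each cell type did not overlap in 47 members, 44 of them lower in HFSCs, against 34.4% of all genes (18.3% lower). Sprr1a stood at 802, 505, 535 and 483 CPM in progenitors and 91.3, 99.2, 106 and 67.0 CPM in HFSCs (-2.68, SE 0.20, adjusted p = 5.29e-07), and Lce3c at 184, 99.9, 113 and 76.2 and 14.6, 16.6, 16.3 and 9.46 CPM (-3.05, SE 0.28, adjusted p = 2.58e-06). In both genes mouse 1 was the highest progenitor and mouse 4 the lowest HFSC library. With the progenitor library of mouse 1 left out, the changes were -2.48 for Sprr1a and -2.76 for Lce3c and both passed.

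S100a1 (1.22), S100a13 (0.60) and S100a4 (0.79) were higher in N1-AcSpd HFSCs too. S100a7a, related to the psoriasin of inflamed skin, was lower (3.88, 2.77, 3.23 and 2.91 CPM in progenitors and 1.41, 1.42, 2.09 and 1.64 CPM in HFSCs, -0.96, adjusted p = 0.000782), as was S100a10 by a small amount (-0.17, adjusted p = 0.0241). The call for S100a10 was lost under 10 of 30 alternative settings, among them scaling by library totals. Sprr2a2 (0.28, adjusted p = 0.0207) and Sprr2a3 (0.28, adjusted p = 0.0188) passed as higher in HFSCs, and these lost the call under 8 settings each. Neither pair of groups was free of overlap, since the progenitor library of mouse 1 reached 6598 CPM of Sprr2a2 and the HFSC libraries lay between 6182 and 7001 CPM. The cell type effects in untreated and N1-AcSpd organoids come from separate libraries of the same mice.

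The comparisons of N1-AcSpd with untreated cells asked whether the acetylated polyamine changes the complex within a cell type. In progenitors no member passed the edgeR test after adjustment, although the levels of Ivl, Lor, Crct1 and the Lce3 genes were higher in all 4 mice. Of all genes, 0.614% passed. At an unadjusted p under 0.05 there were 15 of 55 members, 12 of them with a positive change, against 13.6% of all genes (7.23% with a positive change). With the Sprr2a copies joined as 1 gene, there were 14. DESeq2 called 6 members, Ivl and the genes from Lce3b to Lce3f, against 558 of 19049 genes. A fit with mouse as a block called 1, Sprr2f (adjusted p = 0.0496), against 351 of 19049 genes. The median log2 fold change was 0.32 over the members and 0.00 over all genes, and 44 of the 55 changes were positive. Without the treated library of mouse 1 the members' median was 0.10 with 38 of 55 positive, and without the untreated libraries of mouse 2 and mouse 3, each left out alone, it was 0.19 and 0.53. In 16 members the treated library was higher in 4 of 4 mice (13.2% of all genes) and in 1 it was lower (12.1%).

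**Figure D4:**
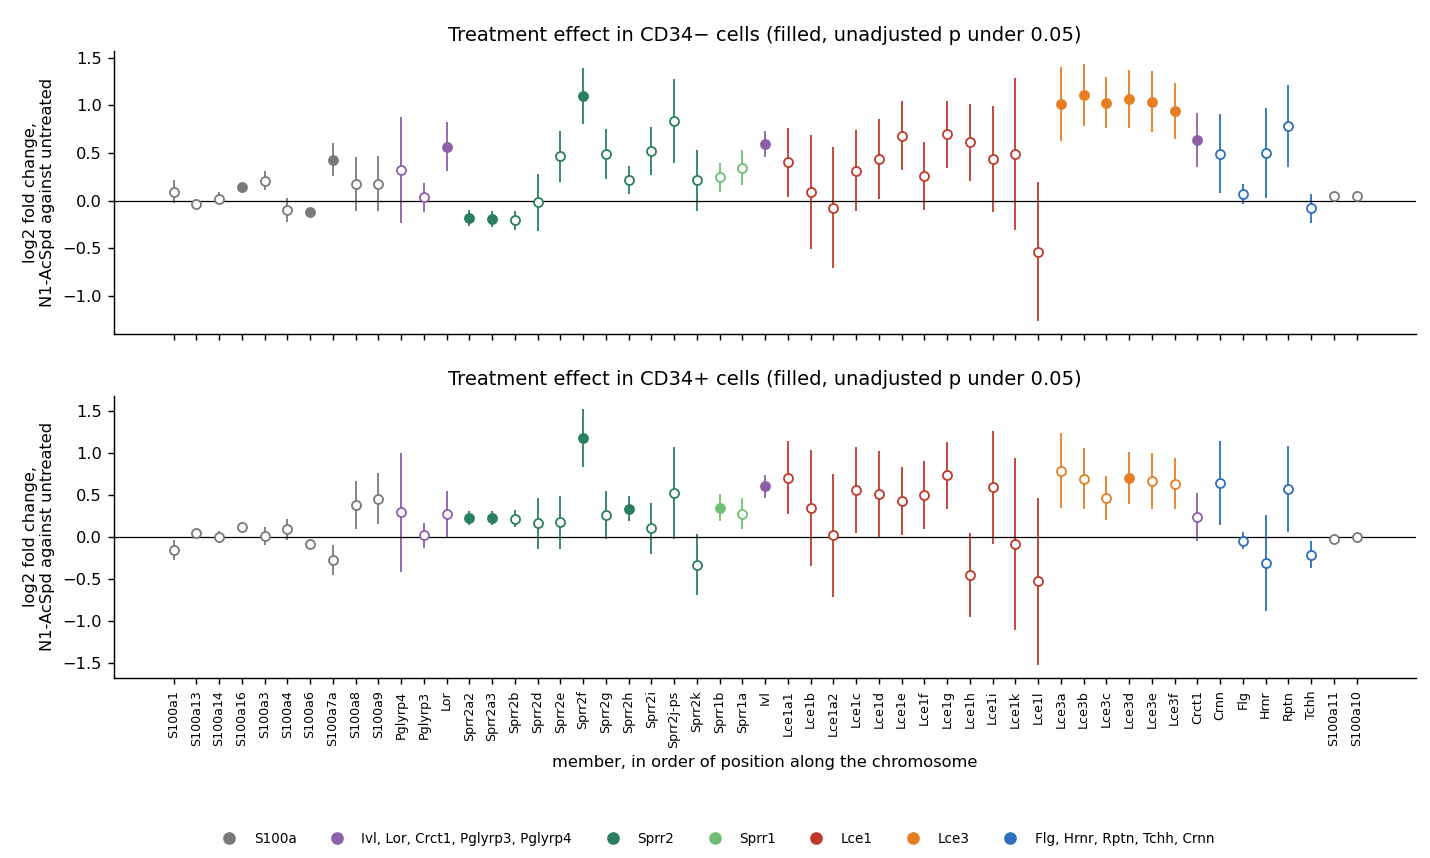
Log2 fold change of N1-AcSpd against untreated cells (y axis, with the standard error as a bar) for 53 members in chromosome order (x axis), in CD34− (top) and CD34+ cells (bottom); filled points had an unadjusted p under 0.05 by edgeR, and no member passed edgeR's test after adjustment. The 6 Lce3 genes lie together near 1 in the top panel and between 0.46 and 0.79 in the bottom panel; Lce1j and Sprr2a1 are left out because of libraries at or near 0.

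Ivl had the smallest p of any member in both cell types. In progenitors it went from the untreated values given above to 60.3, 43.3, 47.5 and 38.9 CPM in mice 1 to 4 (log2 fold change 0.60, SE 0.13, edgeR adjusted p = 0.0686). All 4 treated libraries were above all 4 untreated ones, with the lowest treated library at 38.9 and the highest untreated at 37.3 CPM. Lce3c was higher in each mouse, at 184, 99.9, 113 and 76.2 CPM (1.03, SE 0.26, adjusted p = 0.0989), but the groups overlapped: the treated library of mouse 4 was below the untreated library of mouse 3. Sprr2f stood at 1.76, 1.15, 2.47 and 1.80 CPM untreated and 5.94, 2.59, 3.96 and 2.99 CPM treated (1.10, SE 0.30, adjusted p = 0.114) and its groups did not overlap, though at these levels each value rests on few UMIs. In all 3 genes mouse 1 was the highest treated library. Without that library the log2 fold changes were 0.46 for Ivl, 0.74 for Lce3c and 0.82 for Sprr2f, with adjusted p of 0.1003, 0.166 and 0.206.

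All 6 Lce3 genes had an unadjusted p under 0.05 in progenitors, with log2 fold changes from 0.94 (Lce3f) to 1.11 (Lce3b) and adjusted p from 0.0989 to 0.264. The Lce3 sum was 2.03 times that of untreated progenitors. Without the treated library of mouse 1 the 6 changes ran from 0.63 to 0.79 and the sum was 1.64 times the untreated one. Crct1 and Lor also had positive changes of 0.64 and 0.57 (adjusted p = 0.342 and 0.361), which became 0.34 and 0.23 without that library. The Lce1 group had a median of 0.44, with 11 of 13 positive and 0 at an unadjusted p under 0.05, and the Sprr1 genes gave 0.34 and 0.24. With the treated library of mouse 1 left out, the Lce1 median was 0.01 with 7 of 13 positive, and Sprr1a and Sprr1b gave 0.15 and 0.11. S100a8 and S100a9 gave 0.17 and 0.18 with SEs of 0.29 and 0.29, and 0.09 and 0.07 without that library. S100a6 was the 1 member lower in 4 of 4 mice, at 1269, 1337, 1272 and 1335 CPM untreated and 1193, 1211, 1163 and 1241 CPM treated (-0.12, SE 0.04, adjusted p = 0.241). Treated and untreated groups did not overlap in 4 members, namely S100a7a, Sprr2f, Ivl (higher) and S100a6 (lower), against 9.05% of all genes (4.91% higher and 4.13% lower). Leaving out the treated library of mouse 1 brought Sprr2a2 and Sprr2a3 past the test as lower (-0.30 and -0.31, adjusted p = 0.0278 and 0.0306).

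In HFSCs given N1-AcSpd, again no member passed after adjustment, against 0.325% of all genes. Unadjusted p under 0.05 was found for 7 of 55 members, all with a positive change, against 13.2% of all genes (6.78% with a positive change). DESeq2 called 1, Ivl, against 423 of 19049 genes. With the Sprr2a copies joined as 1 gene, 6 members had an unadjusted p under 0.05. The median log2 fold change was 0.26 (-0.01 over all genes), and 42 of 55 were positive. Ivl stood at 13.3, 13.4, 16.9 and 13.2 CPM, against the untreated values given above (0.60, SE 0.14, adjusted p = 0.0908). The groups did not overlap and the size of the change equalled that in progenitors to 2 decimals. Sprr2f stood at 0.455, 0.384, 0.271 and 0.206 CPM untreated and 0.854, 0.512, 0.921 and 0.705 CPM treated (1.18, SE 0.35, adjusted p = 0.178), levels below 1 CPM in every library. The next smallest p was that of Sprr2a3 (0.22, SE 0.08, adjusted p = 0.280), with Sprr2a2 at the same change. In progenitors the log2 fold changes of these genes were negative (-0.20 and -0.19).

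The Lce3 genes had positive changes in treated HFSCs as well, from 0.46 (Lce3c) to 0.79 (Lce3a), 1 of 6 with an unadjusted p under 0.05 (Lce3d). Treated HFSC libraries were higher than untreated ones in 4 of 4 mice in 21 members (11.7% of all genes) and lower in 2 (11.5%), S100a6 and S100a7a. Non-overlapping groups were seen in 6 members, all higher (Sprr2a2, Sprr2a3, Sprr2b, Sprr2f, Ivl and Lce1g), against 6.81% of all genes (3.38% higher). The UMIs of Sprr2a2 and Sprr2a3 could not be assigned to 1 copy and Sprr2b followed them, so these are not separate signals. The treated HFSC library of mouse 4 was the lowest of its group for Sprr1a, Crct1, Lce3c, S100a8 and S100a9.

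**Figure D5:**
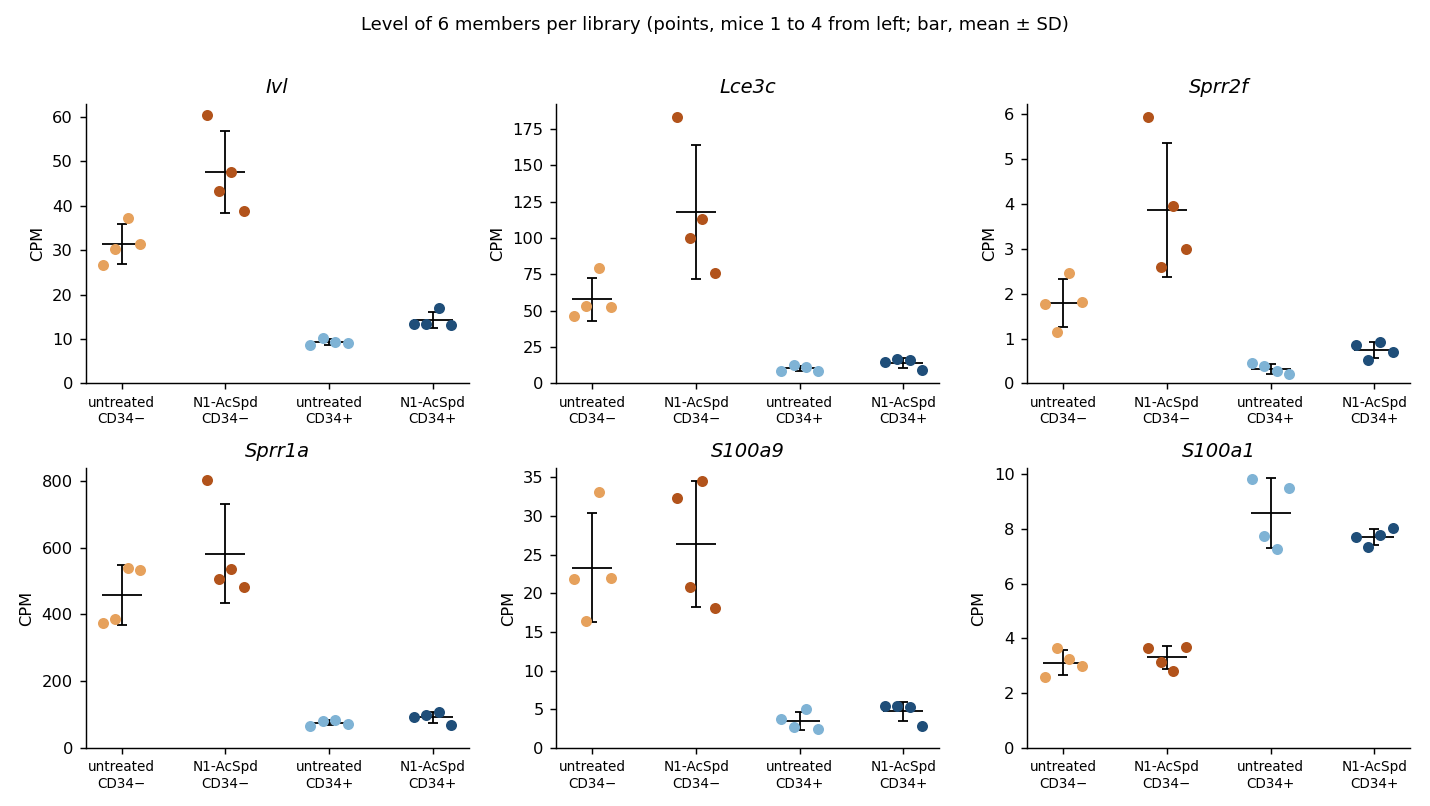
Level in CPM (y axis) of Ivl, Lce3c, Sprr2f, Sprr1a, S100a9 and S100a1 in each of the 16 libraries (points, mice 1 to 4 from left to right; bars, mean ± SD of 4). The first 5 genes are lower in CD34+ than in CD34− cells with or without N1-AcSpd and S100a1 is higher, and the treated CD34− library of mouse 1 is the highest point for Ivl, Lce3c, Sprr2f and Sprr1a.

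The interaction asked whether the effect of N1-AcSpd differed between HFSCs and progenitors. No member passed, 0.0% of all genes did, and 4 of 55 members had an unadjusted p under 0.05 (4.19% of all genes), while DESeq2 called 0 members and 72 of all genes. These 4 were Sprr2a2 (0.41), Sprr2a3 (0.42), Sprr2b (0.43) and S100a7a (-0.70, SE 0.25, adjusted p = 1). With the Sprr2a copies joined as 1 gene, 3 members had an unadjusted p under 0.05. For Ivl the difference was 0.01 (SE 0.18) and for Lce3c -0.57 (SE 0.37).

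Outside the complex, 0 of the 15 crosslinking and scaffold genes, 0 of 22 transcription factors and 0 of 5 S100 partners passed the edgeR test in either treatment comparison. In progenitors 6, 8 and 1 of them had an unadjusted p under 0.05 (13.6% of all genes), 5, 8 and 1 with a positive change, and in HFSCs 5, 6 and 1 (13.2% of all genes), 4, 6 and 0 with a positive change. Of the crosslinking and scaffold genes, DESeq2 called 5 in progenitors (Cdsn, Sbsn, Dmkn, Cnfn and Dsp) and 1 in HFSCs (Dmkn). Of the transcription factors it called 4 and 1, and of the S100 partners 0 in both. Over all 19049 genes it called 558 in progenitors and 423 in HFSCs. Among the marker lists, 1 bulge marker, Nfatc1, was lower in treated progenitors (-0.35, adjusted p = 0.0480). The summed bulge markers were 76.3 to 90.6 CPM in treated and 96.4 to 107 CPM in untreated progenitors. Their part in the changes of the complex was not tested.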

How the data were processed

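Total RNA from 16 libraries (4 mice, each in 4 groups) was converted with sample barcodes and UMIs and sequenced from the 3′ end. The submitters' processing notes name FastQC 0.11.7, kallisto 0.45.0, bedtools and DESeq2, with the build mm10. The authors placed reads on the mouse genome, assigned them to genes and counted unique UMIs, and the deposited values are these raw counts per gene, without normalization. The annotation release is not given in the sources used here. Empty cells, 156050 in all, stand for genes without a UMI and were read as 0. Symbols and positions came from GENCODE on GRCm38, and 94 identifiers with 0.125% of all UMIs had no symbol there.

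The 19049 genes with a mean of at least 5 UMIs entered a fit in edgeR 4.0.16 (R 4.3.3, with TMM scaling, quasi-likelihood tests, 1 mean per group, Benjamini-Hochberg adjustment over all genes), and calls were made at an adjusted p under 0.05. P-values are two-sided. CPM are UMI counts scaled by the TMM-scaled totals, as mean ± SD over 4 libraries or 1 value per mouse. Each member with a mean of at least 50 UMIs is named, and without a call in a treatment comparison the 3 with the smallest unadjusted p. Of each list outside the complex, the 2 called genes with the largest change in untreated cells are named. Members and lists were chosen with earlier results of these data known. The labels give the 4 libraries of a replicate number a shared code but name no mouse. That they come from the same mouse was inferred from this code and the paper's 4 donors. Deviations of such libraries from their group means had a mean correlation across genes of 0.0133 (-0.0689 to 0.0858, 24 pairs).

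Alternatives were DESeq2 1.42.0, its size factors or library totals in edgeR, other low-count filters, mouse as a replicate block, only the libraries compared, thinning to the smallest library, and omission of single libraries or mice. Taking off the counts of nested pseudogenes and joining the Sprr2a copies were chosen after seeing the data. The edgeR procedure was tested on simulated data first. Promoter sequences came from RefSeq on GRCm38.p6. The count floor used for groups at 0 covers counting error only. The transcription factors that DESeq2 called are not named here.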

Additional observations from a re-analysis of the deposited data

Results flagged for a closer look

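Within single groups, 1 library lay far from the other 3 (the gap over the range exceeded Dixon's critical value) in 16 of 156 groups of 4. The nominal rate of this rule is about 1 in 20 for independent groups. These groups share libraries and are not independent, and the share over all genes was not computed, so no excess is read from this count. In untreated CD34− cells the library of mouse 3 was high for Lce3d (50.8 CPM, others 25.7 to 28.7), Lce3e (28.8 CPM, others 14.8 to 17.1), Lce3f (58.2 CPM, others 31.5 to 32.7) and Crct1 (70.3 CPM, others 39.9 to 44.1), which are neighbours on the chromosome. In N1-AcSpd CD34− cells the library of mouse 1 was high for Sprr1a (802 CPM, others 483 to 535), Sprr1b (488 CPM, others 339 to 361) and Sprr2a2 (6598 CPM, others 4834 to 5013), and low for S100a13 (14.4 CPM, others 15.4 to 15.5). Single cases were S100a14 in untreated CD34− cells, low in mouse 4 (209.7 CPM, others 241.6 to 244.9), Sprr2b there, low in mouse 2 (173.8 CPM, others 205 to 209), S100a7a in untreated CD34+ cells, low in mouse 2 (1.43 CPM, others 2.11 to 2.22), and Pglyrp3 there, high in mouse 3 (3.14 CPM, others 2.06 to 2.19). In N1-AcSpd CD34+ cells they were S100a9, low in mouse 4 (2.88 CPM, others 5.28 to 5.42), Ivl, high in mouse 3 (16.9 CPM, others 13.2 to 13.4), Lce1i, high in mouse 2 (1.31 CPM, others 0.446 to 0.491), and Tchh, low in mouse 3 (2.33 CPM, others 2.64 to 2.68).

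S100a7a was the 1 named member whose treated library was higher in 4 of 4 mice in CD34− cells and lower in 4 of 4 in CD34+ cells. The difference of the treatment effects (CD34+ minus CD34−) was -0.70 on the log2 scale, with an unadjusted p of 0.0141 and an adjusted p of 1 by edgeR. The CD34+ libraries stood at 2.22, 1.43, 2.11 and 2.16 CPM untreated and 1.41, 1.42, 2.09 and 1.64 CPM treated.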

How the results depend on the processing

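The counts of members called between the cell types moved little. In untreated cells 41 to 50 of the members passed when 1 library or mouse was left out and 46 to 48 under the other settings, and in N1-AcSpd cells 44 to 50 and 48 to 52. For the effect of N1-AcSpd in progenitors, DESeq2 called 6 members and the fit with mouse as a replicate block called 1 (Sprr2f), against 0 by edgeR. The range was 0 to 2 over runs with 1 library or mouse left out, the 2 being Sprr2a2 and Sprr2a3 without the treated CD34− library of mouse 1. In HFSCs DESeq2 called 1 member and no left-out library or mouse gave a call (0 in each run). The interaction stayed at 0 under all settings tried. The block also brought S100a10 in untreated cells (adjusted p = 0.0474) and S100a6 in N1-AcSpd cells (adjusted p = 0.0335) past the test, took the call from Lce1j in untreated cells (adjusted p = 0.0520) and changed no other call of a tested member. Over all genes it called 351 and 152 genes for N1-AcSpd in progenitors and HFSCs, DESeq2 558 and 423, and edgeR without a block 117 and 62. The cause of these differences was not tested. Of 5927 values of named members, 35 lost their call, 24 gained one and 0 called values changed sign. Among values without a call, 145 in 26 genes changed sign. Of these, 24 were for N1-AcSpd in progenitors, 34 for N1-AcSpd in HFSCs and 87 for the interaction. Scaling by library totals moved the median of all genes to 0.14 in untreated and 0.11 in N1-AcSpd cells. With it S100a6 (0.17 and 0.20) passed as higher in HFSCs and S100a10 (-0.05) no longer passed in N1-AcSpd cells. These changes were tested against 0 and not against the shifted medians. Depth limited the 9 members below 5 UMIs, which were not tested, and the Lce1 genes with the lowest counts.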

Other observations

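Markers of other parts of the follicle and of other cell types also differed between the untreated cell types. Of all genes tested, 16.1% passed as lower in HFSCs and 16.1% as higher. Companion layer and inner bulge keratins were lower in HFSCs in 3 of 4 tested, with Krt6b at -2.31 and Krt16 at -1.51 on the log2 scale. Of 3 infundibulum markers, Cst6 (-2.48) and Plet1 (-1.78) were lower and Lrig1 was higher (0.56). Of 6 basal keratinocyte markers 2 were higher and 2 lower, with Krt15 at 3.35 and Itga6 at -0.34. The neutrophil and macrophage markers Cxcr2 (-0.92) and Itgam (-0.48), the fibroblast marker Col1a2 (-2.19), the sebocyte marker Scd3 (-0.71) and the endothelial marker Pecam1 (-0.13) were lower, 0 of 3 melanocyte markers and 0 of 1 T cell marker passed the edgeR test or an unadjusted p under 0.05, and the hair shaft list was too low to test. The summed fibroblast markers reached at most 1.52 CPM in any library. Pecam1 stood at 1987 ± 85.7 CPM in untreated CD34− and 1817 ± 50.5 CPM in untreated CD34+ cells (mean ± SD, n = 4), while the other endothelial marker, Kdr, was at most 0.360 CPM in any library.

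In treated progenitors, a fit with mouse as a block called Sbsn, Junb and Plet1 besides Nfatc1 among the listed genes outside the complex. Over all 19049 genes this fit called 351.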
